A study of Mus musculus with 4 samples.

Results

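Genes of haem, metal and oxidative stress handling, 10 in all, were followed through tumour monocytes and macrophages of mice: Hmox1, Slc40a1, Ftl1, Fth1, Mt1, Mt2, Gsr, Srxn1, Txnrd1 and Gclm. They were taken by name and are 10 of the 13111 genes held in the RNA tables used here. Cells came from subcutaneous tumours of the Lewis lung carcinoma line LLC or the melanoma line B16, in 3 droplet libraries of RNA on the 10x platform, each pooled from 3 mice. The LLC library came from F11r fl/fl LysM-Cre- mice, which carry floxed F11r and no Cre recombinase under the myeloid LysM promoter. The LLC CITE-seq library, which also reads antibody tags on the same cells, and the B16 library came from C57BL/6J mice. No treatment or age is given for any group. Every group is 1 library, so all differences below are between libraries, no test across replicates exists, and intervals in brackets are exact 95% intervals that cover counting error only. The LLC and LLC CITE-seq libraries differ in genotype, protocol and depth together, and the LLC and B16 libraries in tumour and genotype together, and these cannot be told apart.

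Haem released from red cells or proteins is taken up by macrophages and opened by haem oxygenase 1, the product of Hmox1, which frees iron, carbon monoxide and biliverdin. The iron is stored in ferritin shells built from heavy chains (Fth1) and light chains (Ftl1), or leaves the cell through ferroportin (Slc40a1), the known iron exporter of animals. Metallothioneins (Mt1, Mt2) bind zinc and copper. Gclm is the modifier subunit of the enzyme that starts glutathione synthesis, Gsr reduces oxidised glutathione, Txnrd1 reduces thioredoxin, and Srxn1 repairs overoxidised peroxiredoxins. Many of these genes are textbook targets of the transcription factor NRF2, which binds antioxidant response elements, and Hmox1 is also held down by the haem-sensing repressor BACH1. Ferritin and ferroportin messages are further controlled after transcription by iron regulatory proteins, which bind a hairpin called the iron-responsive element.

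The hairpins of the 3 iron genes are shown because RNA counts alone do not see this layer of control. Each is a stretch of 30 bases in the 5′ untranslated part of exon 1 in the mm10 genome (GENCODE vM21 models), with the 6 bases of the loop in capitals and 5 paired bases directly on each side of it.
Fth1 (chr19:9982732-9982761, plus strand): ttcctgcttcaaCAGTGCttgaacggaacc
Ftl1 (chr7:45459778-45459807, minus strand): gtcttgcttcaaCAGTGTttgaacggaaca
Slc40a1 (chr1:45925464-45925493, minus strand): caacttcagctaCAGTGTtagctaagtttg
The ferritin hairpins share 26 of 30 positions with each other, and each of them shares 13 of 30 with the Slc40a1 hairpin. The loop starts at position -126 from the start codon in Fth1, -164 in Ftl1 and -218 in Slc40a1.

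Promoter stretches are shown for the metallothioneins and for 3 genes of thiol chemistry, the 5 genes with a match to the motifs named below. RefSeq promoter windows (GRCm38.p6, 250 bases before to 50 after a start) were found for 7 of the 10 genes, in 10 windows. Hmox1, Slc40a1 and Gsr had none. Each line runs from -140 to -11 from the start site on the plus strand, which is the coding strand of all 5 genes. Capitals mark matches, on either strand, to the antioxidant response element core (TGACNNNGC), the AP-1 and MAF site (TGANTCA) or the metal response element core (TGCACNC or TGCGCNC).
Mt1 (chr8:94178949-94179078): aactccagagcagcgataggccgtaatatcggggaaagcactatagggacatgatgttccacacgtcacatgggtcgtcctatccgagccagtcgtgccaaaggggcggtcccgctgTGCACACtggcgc
Mt2 (chr8:94172478-94172607): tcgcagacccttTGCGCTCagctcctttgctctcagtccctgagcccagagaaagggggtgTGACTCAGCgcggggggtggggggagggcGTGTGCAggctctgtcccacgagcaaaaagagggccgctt
Srxn1 (chr2:152105384-152105513): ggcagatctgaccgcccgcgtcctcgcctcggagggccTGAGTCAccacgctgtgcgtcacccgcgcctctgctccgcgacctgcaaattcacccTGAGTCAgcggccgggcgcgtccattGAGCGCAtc
Txnrd1 (chr10:82859066-82859195): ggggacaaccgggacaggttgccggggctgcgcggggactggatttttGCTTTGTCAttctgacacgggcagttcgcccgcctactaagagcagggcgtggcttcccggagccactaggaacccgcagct
Gclm (chr3:122245417-122245546): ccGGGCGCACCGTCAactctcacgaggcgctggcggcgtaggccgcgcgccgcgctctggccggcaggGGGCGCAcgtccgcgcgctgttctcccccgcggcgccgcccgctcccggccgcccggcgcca
Mt1 holds 1 metal site in this stretch. Mt2 holds 2, plus an antioxidant core at position -79 whose letters are also an AP-1 site. Srxn1 holds 2 AP-1 and MAF sites and 1 metal core at position -19. Txnrd1 and Gclm hold 1 antioxidant core each, on the minus strand, at positions -92 and -134. Gclm also holds 2 metal cores, at -72 and at -138, and the latter overlaps its antioxidant core, so that they share 1 run of capitals. The whole windows of 300 bases hold further sites outside the printed stretch. These are an antioxidant core at position 28 in Srxn1, and metal cores at 2 and 20 in Mt1, -223 and 4 in Mt2, and 27 in Gclm. Such matches are common by sequence alone. Of 32851 promoter windows of 300 bases, 12.4% hold the antioxidant core, 7.81% the AP-1 and MAF site, 25.7% a metal core and 19.6% the hypoxia response element core ACGTG. Mt1 and Gclm hold that last motif as well. The windows of Ftl1 and Fth1 hold none of the 4 motifs, and neither does any other of the 10 windows that is not printed. The Txnrd1 window starts at base 82858956 of chromosome 10, inside a gene model that starts at 82833951. Mt2 and Mt1 are neighbours on chromosome 8, with 5513 bases between the end of Mt2 and the start of Mt1.

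The table of monocytes and macrophages held 8155 LLC cells, 10131 LLC CITE-seq cells and 2297 B16 cells, with medians of 6530, 4546 and 9250 unique molecules (UMIs) per cell. The joint table of all cell types held 13021 LLC and 6870 B16 cells. Levels are counts per 1000000 (CPM), the summed UMIs of a gene over the summed UMIs of all genes in the same cells. Subset names are those the authors deposited. They come from clusters made on the same RNA, so a subset set against other cells is a description. Libraries shared between 5 and 18 cell barcodes in the first table and 29 in the joint table. Melanocyte markers were at 0 CPM in both LLC libraries and at 29.7 to 54.4 CPM over the B16 subsets. Levels of different genes are not ranked against each other.

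**Figure D1:**
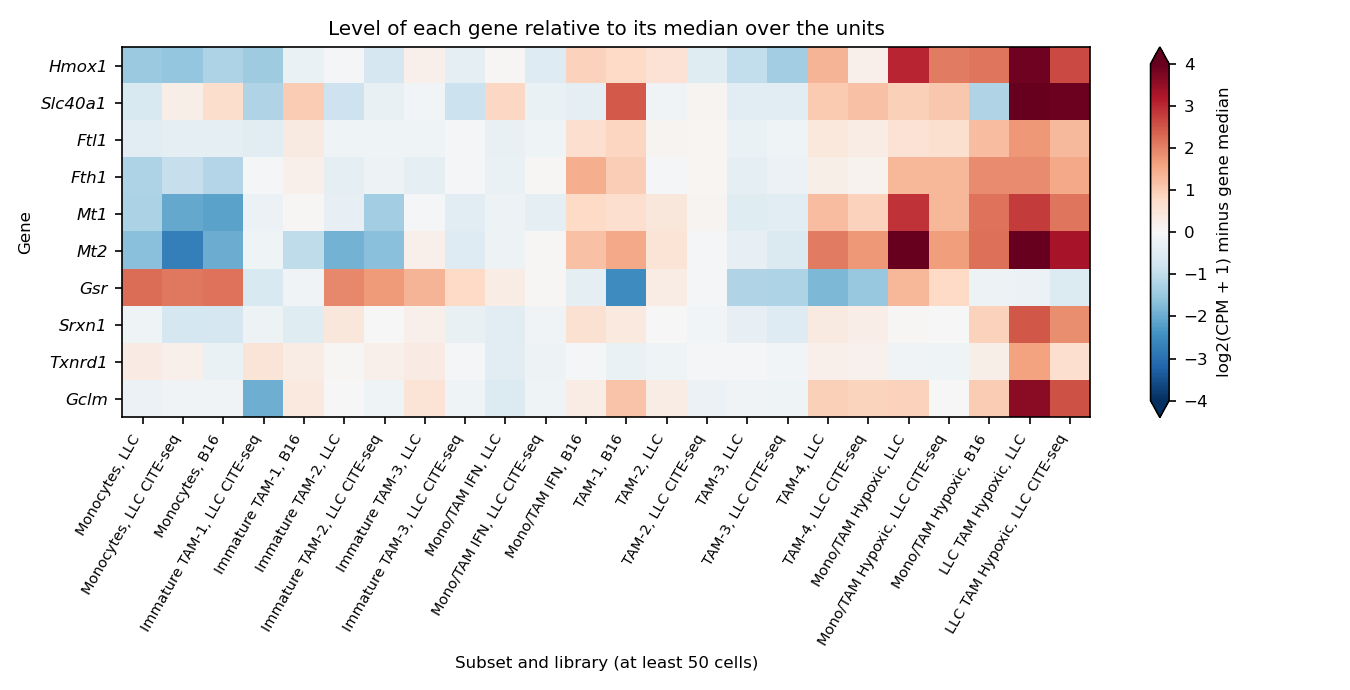
The colour is the log2(CPM + 1) level of each of the 10 genes in each of 24 subset-by-library units of at least 50 cells, minus that gene's median over the units. Columns of the subsets LLC TAM Hypoxic and Mono/TAM Hypoxic stand above the median for Hmox1, Fth1, Mt1 and Mt2, while Gsr is highest in the Monocytes columns.

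Most of the 10 genes peaked in a pair of subsets that the authors named for hypoxia. The subset LLC TAM Hypoxic occurs in all libraries despite its name, with 455 LLC, 511 CITE-seq and 17 B16 cells. Mono/TAM Hypoxic held 1095, 570 and 213 cells. The names fit the markers in part. In LLC TAM Hypoxic the summed macrophage markers reached 10213 CPM in LLC and 12403 CPM in CITE-seq against 530 and 587 CPM of monocyte markers. Mono/TAM Hypoxic was mixed, with 3861, 4983 and 5384 CPM of macrophage markers and 2834, 2900.1 and 2454 CPM of monocyte markers in LLC, CITE-seq and B16. Of 18 hypoxia genes listed from general knowledge, 15 in LLC, 17 in CITE-seq and 18 in B16 were at least 1.5-fold higher in Mono/TAM Hypoxic than in the other cells. In LLC TAM Hypoxic 11 and 12 of 18 were. Of all measured genes, 10.8%, 9.96% and 12.9% were higher in Mono/TAM Hypoxic, and 9% and 8.51% in LLC TAM Hypoxic. The subsets were clustered on the same RNA, so these counts describe the names and do not test them.

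Among subsets of at least 50 cells, Hmox1, the haem oxygenase, was highest in LLC TAM Hypoxic of both LLC libraries and lowest in Monocytes of all 3 libraries. In B16, where LLC TAM Hypoxic was too small to be ranked, Mono/TAM Hypoxic was highest. In the LLC library it stood at 5922 CPM [5844 to 6001] in LLC TAM Hypoxic, 3272 CPM [3224 to 3319.7] in Mono/TAM Hypoxic, 1022 CPM in TAM-4 and 595 CPM in TAM-2. Monocytes had 142 CPM. In CITE-seq the order at the top was the same at lower levels, with 2499.8 CPM in LLC TAM Hypoxic, 1674 CPM in Mono/TAM Hypoxic, 455 CPM in TAM-4 and 136 CPM in Monocytes. B16 had 1779 CPM in Mono/TAM Hypoxic, 759 CPM in Mono/TAM IFN, 691 CPM in TAM-1, 335 CPM in Immature TAM-1 and 168 CPM in Monocytes. The first and second subsets did not overlap in their counting intervals in any library. Hmox1 was 6.997-fold [6.89 to 7.11] higher in LLC TAM Hypoxic than in all other cells of the LLC library and 6.81-fold [6.62 to 6.9996] higher in CITE-seq. It was 3.92-fold higher in Mono/TAM Hypoxic of CITE-seq and 3.09-fold higher in that of B16. A UMI of Hmox1 was found in 95.4% of LLC TAM Hypoxic cells of LLC and 87.1% of CITE-seq, or 83.3% and 72.0% after thinning every cell to 2000 UMIs.

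The hypoxic subsets held much of all Hmox1 RNA of the compartment. In LLC they were 19.0% of cells and 14.96% of UMIs but held 56.3% of Hmox1 UMIs. In CITE-seq they were 10.7% of cells and held 36.7%, and in B16 they were 10.0% of cells and held 19.7%. For Mt2 the same shares of UMIs were 63.0% in LLC, 25.3% in CITE-seq and 15.1% in B16. For Gsr they were 18.8%, 8.87% and 6.44%, where the subsets held 14.96%, 7.93% and 6.41% of all UMIs.

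**Figure D2:**
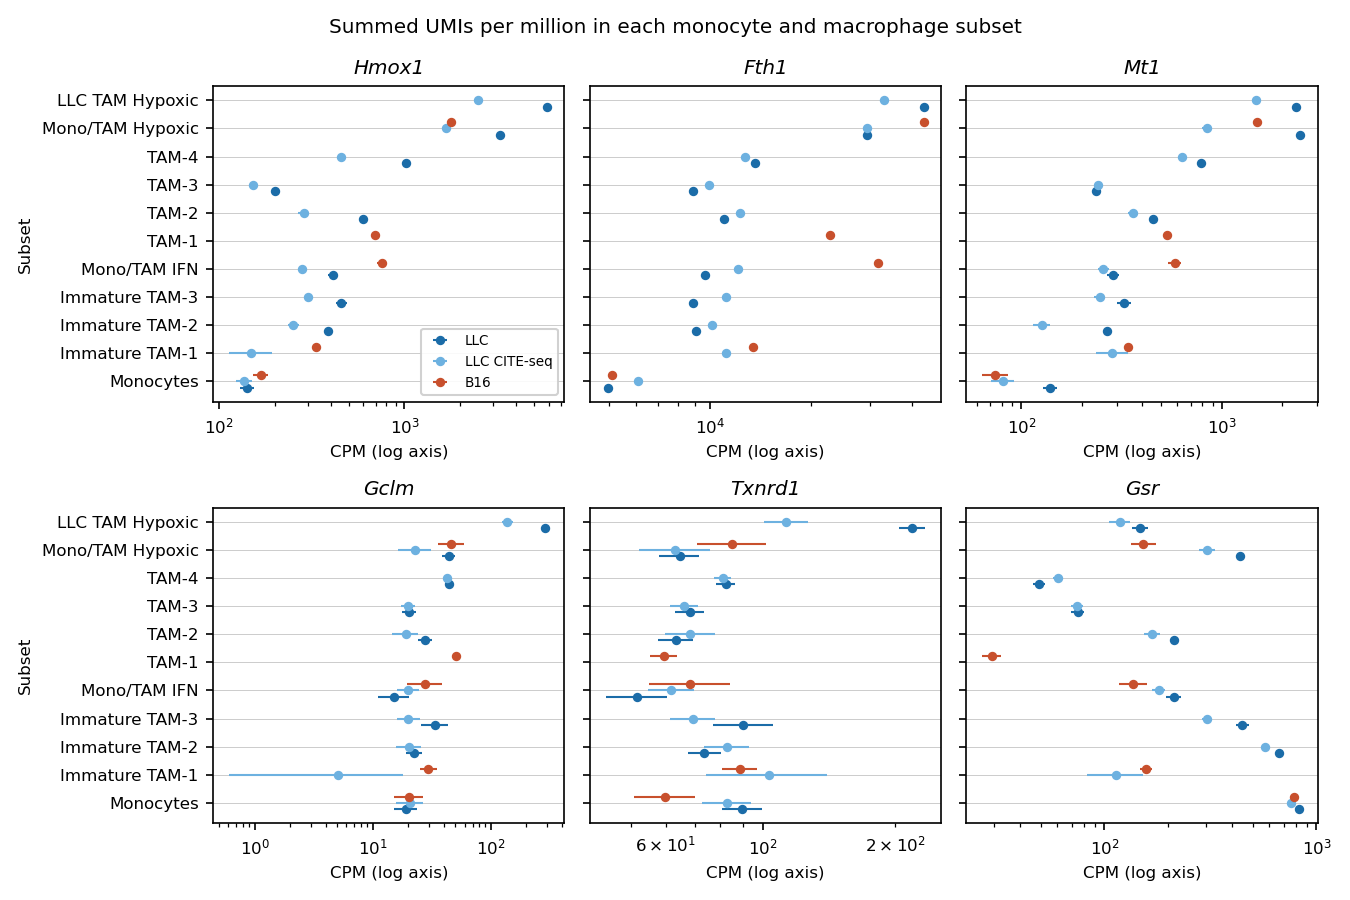
Points give CPM on a log axis of Hmox1, Fth1, Mt1, Gclm, Txnrd1 and Gsr in each subset of at least 50 cells, for the 3 libraries, with exact Poisson 95% intervals as bars. LLC TAM Hypoxic is highest for Hmox1, Fth1 and Gclm in both LLC libraries, and Monocytes are highest for Gsr in every library.

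Slc40a1, the iron exporter, was scarce everywhere among monocytes and macrophages and concentrated in LLC TAM Hypoxic. Its level there was 44.3 CPM [37.8 to 51.5] in LLC, from 165 UMIs, and 33.8 CPM [27.3 to 41.6] in CITE-seq, from 91 UMIs. The next subset was TAM-4, with 3.77 and 4.13 CPM. The ratio to all other cells was 21.4-fold [16.9 to 27.4] in LLC and 13.1-fold [9.91 to 17.1] in CITE-seq. Few cells carried it, 13.4% of 455 in LLC [10.4 to 16.9] and 7.44% of 511 in CITE-seq [5.32 to 10.1]. Naive T cells of the LLC library, which should lack ferroportin, had a UMI in 1.08% of 185 cells, with median depths of 2455 UMIs there and 7420 in LLC TAM Hypoxic. After thinning, the shares were 5.58% in LLC TAM Hypoxic, 4.46% in that subset of CITE-seq and 0 in naive T cells.

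In B16, TAM-1 had the highest Slc40a1 level among subsets of at least 50 cells. TAM-1, the largest B16 subset, had 11.6 CPM [9.82 to 13.5], from 157 UMIs in 5.53% of 941 cells. Mono/TAM Hypoxic of B16 had 0 UMIs in 213 cells, where 3 counts would be 2.07 CPM. Both hypoxic subsets together held 5 of the 189 Slc40a1 UMIs of B16, so these 5 lay in its LLC TAM Hypoxic cells. Those are 17 cells, too few to be ranked here, so a different location in B16 is not shown. Mono/TAM Hypoxic of LLC and CITE-seq had 3.44 and 3.81 CPM, from 19 and 7 UMIs. Because the CPM of Slc40a1 was far higher in neutrophils (below), their markers are given beside it. The 6 neutrophil markers summed to 546 CPM in LLC TAM Hypoxic of LLC and 384 CPM of CITE-seq, within the range over subsets of 277 to 747 and 212 to 747 CPM, and all 6 had UMIs. Among CITE-seq cells with 0 UMIs of these markers, Slc40a1 was 11.8-fold [5.62 to 23.9] higher in LLC TAM Hypoxic, from 14 UMIs in 211 cells. In LLC that comparison rested on 2 UMIs in 51 cells, with a ratio of 8.62 [0.821 to 52.6]. Most Slc40a1 UMIs of the subset lay in its cells with at least 1 marker UMI, 163 in 404 cells of LLC and 77 in 300 cells of CITE-seq. Levels were 47.7 CPM in those cells and 6.42 CPM in cells without markers in LLC, and 44.7 and 14.5 CPM in CITE-seq. A neutrophil source of this RNA was not tested. Without the 5 cells with most Slc40a1 UMIs the ratios over all other cells were 15.6 and 8.22.

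Both ferritin chains were highest in the hypoxic subsets, the heavy chain by more. Fth1 reached 43419 CPM in LLC TAM Hypoxic and 29326 CPM in Mono/TAM Hypoxic of LLC, 32978 and 29371 CPM in the same subsets of CITE-seq, and 43217 CPM in Mono/TAM Hypoxic of B16. Monocytes were lowest, at 4954, 6087 and 5108 CPM. The other subsets of the LLC library lay between 8885 and 13620.0 CPM. Fth1 was 3.49-fold higher in LLC TAM Hypoxic than in the other cells of LLC and 2.75-fold higher in CITE-seq, and 2.29-fold, 2.36-fold and 2.25-fold higher in Mono/TAM Hypoxic of LLC, CITE-seq and B16.

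Ftl1, the light chain, was 3.06-fold and 2.30-fold higher in LLC TAM Hypoxic, with levels of 22619.7 and 16697 CPM. Its ratios in Mono/TAM Hypoxic were 1.24, 1.41 and 1.497, all short of 1.5-fold. Counts of heavy chain per light chain differed between subsets, with overlap. They were 0.994, 1.16 and 0.961 in Monocytes of LLC, CITE-seq and B16, 1.499 and 1.51 in TAM-4, 1.92 and 1.98 in LLC TAM Hypoxic, and 2.91, 2.75 and 2.71 in Mono/TAM Hypoxic. Mono/TAM IFN of B16 stood with the latter at 2.91, against 1.73 in LLC and 1.998 in CITE-seq. Immature TAM-1 had 2.18 [2.07 to 2.30] in CITE-seq, above LLC TAM Hypoxic, and 1.52 in B16, where TAM-1 had 1.85. Ftl1 is uncertain as a single-gene level, since the table also holds the near-identical pseudogene Ftl1-ps1, whose profile over the 24 units correlated with it at r = 0.96, and reads may have been divided between them.

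The metallothioneins peaked in the hypoxic subsets but did not keep the same order of the subsets in both LLC libraries. Mt1 stood at 2466 CPM in Mono/TAM Hypoxic and 2339 CPM in LLC TAM Hypoxic of LLC, at 843 and 1477 CPM in CITE-seq, and at 1496 CPM in Mono/TAM Hypoxic of B16. Monocytes had 139, 80.5 and 73.9 CPM. Mt2 followed with 359 and 340 CPM in LLC, whose intervals overlapped, 56.6 and 175 CPM in CITE-seq, and 82.9 CPM in B16, against 4.67, 1.71 and 3.52 CPM in Monocytes. In LLC TAM Hypoxic the ratios over other cells were 3.54 and 3.501 for Mt1 and 5.08 and 5.27 for Mt2. They were 4.15, 1.84 and 3.30 for Mt1 and 6.37, 1.44 and 2.26 for Mt2 in Mono/TAM Hypoxic of LLC, CITE-seq and B16. The count of Mt2 per Mt1 was 0.145 in both hypoxic subsets of LLC, 0.119 and 0.0671 in LLC TAM Hypoxic and Mono/TAM Hypoxic of CITE-seq, and 0.0335 in Monocytes of LLC.

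Among the glutathione and thioredoxin genes, Gclm, Srxn1 and Txnrd1 marked LLC TAM Hypoxic and Gsr did not. Gclm, the glutathione synthesis subunit, stood at 290.2 CPM [273 to 308] there in LLC and 138 CPM [124 to 153] in CITE-seq, and the next subset, TAM-4, had 44.5 and 42.8 CPM. That is 9.18-fold [8.50 to 9.90] and 4.65-fold [4.15 to 5.21] over all other cells. Srxn1 reached 103 and 65.5 CPM, 5.42-fold and 3.86-fold over the rest, with no other LLC or CITE-seq subset above 24.2 CPM. Txnrd1 reached 219 CPM in LLC, 2.96-fold over the rest. In CITE-seq it reached 113 CPM, 1.52-fold over the rest [1.35 to 1.70], and Immature TAM-1 followed at 103 CPM with an overlapping interval. None of these reached 1.5-fold higher in Mono/TAM Hypoxic of LLC or CITE-seq. Gclm had ratios of 0.925 and 0.650 there, Srxn1 0.724 and 0.901, and Txnrd1 0.765 and 0.821. In B16 the ratios in Mono/TAM Hypoxic were 1.11, 1.67 and 1.22, the Srxn1 value resting on 49 UMIs.

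Gsr, the glutathione reductase, ran the other way. Monocytes had 823 CPM in LLC, 756 CPM in CITE-seq and 785 CPM in B16, which was 3.85-fold, 5.32-fold and 9.70-fold [9.10 to 10.3] over all other cells of each library. Immature TAM-2 followed in LLC and CITE-seq with 662 and 574 CPM. The lowest levels were in the subsets richest in macrophage markers, TAM-4 with 49.0 and 60.6 CPM and TAM-1 of B16 with 29.4 CPM. These 2 subsets had 19573 and 18723 CPM of macrophage markers in LLC and CITE-seq (TAM-4) and 19318 CPM in B16 (TAM-1). LLC TAM Hypoxic had 148 CPM in LLC, 1.77-fold below the rest, and 118 CPM in CITE-seq, 1.49-fold below. Over the 24 units the correlation of Gsr with each of the other 9 genes lay between -0.04 and -0.48, while Hmox1 and Mt1 correlated at 0.93. The units share libraries and depth, so these are descriptions.

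Counted over the 10 genes, 9 were higher and 1 lower in LLC TAM Hypoxic than in the other cells of LLC, where 9% of all measured genes were called higher and 15.6% lower. In CITE-seq 9 were higher and 0 lower, against 8.51% and 15.9% of all genes. A gene was called at 1.5-fold with at least 20 UMIs over both sides. In Mono/TAM Hypoxic the counts were 5 higher and 0 lower in LLC (10.8% and 38.9% of all genes), 4 and 1 in CITE-seq (9.96% and 33.2%) and 5 and 1 in B16 (12.9% and 37.6%), where the lower one is Slc40a1 at 0 UMIs. The median gene, over genes with UMIs on both sides, was itself shifted by -0.12 (log2) in LLC TAM Hypoxic of both libraries and by -0.38, -0.32 and -0.35 in Mono/TAM Hypoxic. Scaling by the median gene moved the share of calls that were higher from 36.6% to 49.9% and from 34.9% to 48.1% in LLC TAM Hypoxic. It moved in Mono/TAM Hypoxic from 21.7% to 46.4%, from 23.1% to 47.5% and from 25.5% to 48.1%. With that scaling 9 and 1 of the 10 genes were called in LLC TAM Hypoxic of LLC, 9 and 0 in CITE-seq, and 6 and 0, 6 and 0, and 7 and 1 in Mono/TAM Hypoxic.

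**Figure D3:**
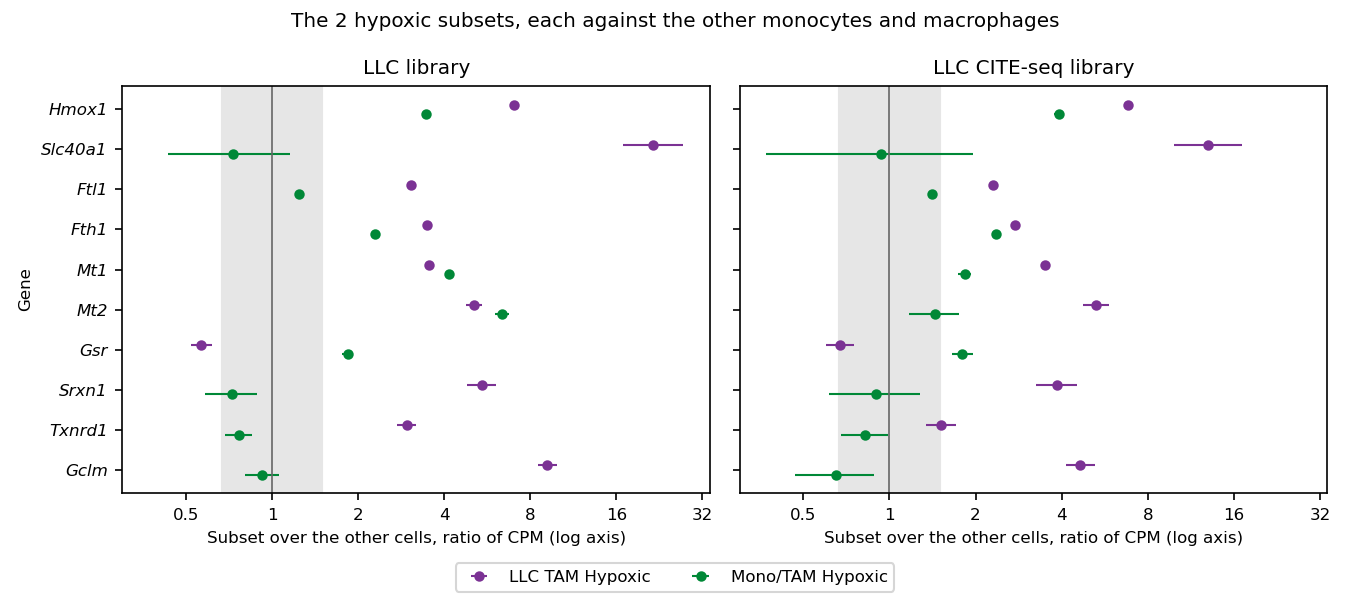
Points are ratios of CPM on a log axis, of LLC TAM Hypoxic and of Mono/TAM Hypoxic over all other cells of the same library, for the 10 genes in LLC and CITE-seq, with exact 95% intervals. Hmox1 and Fth1 lie above 1.5-fold for both subsets, Gclm and Slc40a1 only for LLC TAM Hypoxic.

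Set directly against each other, the hypoxic subsets divided the 10 genes. LLC TAM Hypoxic exceeded Mono/TAM Hypoxic in Slc40a1 by 12.9-fold [7.99 to 21.9] in LLC and 8.89-fold [4.14 to 22.7] in CITE-seq, in Gclm by 6.60-fold and 6.04-fold, in Srxn1 by 5.77-fold and 3.76-fold, in Txnrd1 by 3.385-fold and 1.79-fold, and in Ftl1 by 2.24-fold and 1.56-fold. Hmox1 was 1.81-fold higher in LLC and 1.49-fold in CITE-seq. Fth1 differed least in the iron group, with ratios of 1.48 and 1.12. Gsr was 2.95-fold and 2.58-fold lower. Mt1 and Mt2 had ratios of 0.948 and 0.947 in LLC and were higher in LLC TAM Hypoxic of CITE-seq, by 1.75-fold and 3.10-fold. In all, 6 genes were higher and 1 lower in LLC, against 26.3% and 11.7% of all measured genes, and 7 and 1 in CITE-seq, against 22.7% and 9.73%. The median gene stood at 0.18 and 0.16 (log2) in this contrast, and median scaling moved the share of calls that were higher from 69.2% to 53.6% and from 70.0% to 52.9%. It left 6 and 1 of the 10 genes called in each library. The contrast was added after the levels had been seen.

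Other genes of the same pathways, from lists that leave out the 10, divided in the same contrast as follows, where 26.3% (LLC) and 22.7% (CITE-seq) of all measured genes were higher and 11.7% and 9.73% lower. Of 17 measured NRF2 targets, 10 were higher and 1 lower in LLC TAM Hypoxic of LLC, and 9 and 2 in CITE-seq, with median log2 ratios of 0.77 and 0.61. Genes were named by their interval bound and not by the ratio itself. They were Prdx1, a peroxiredoxin (7.22-fold and 4.003-fold), Gclc, the catalytic partner of Gclm (4.51-fold and 4.94-fold), and Blvrb, a biliverdin reductase (2.77-fold and 2.39-fold). Slc7a11, the cystine importer, had ratios of 0.844 and 0.662. Of the haem uptake and breakdown genes, 8 of 10 measured were higher in LLC, against 5 of 8 for CITE-seq, with none lower, among them Slc48a1, a haem transporter of endolysosomes (2.17-fold and 1.98-fold), and Cd36, a scavenger receptor (2.31-fold and 2.47-fold). Iron handling genes split 5 higher and 4 lower of 15 in LLC and 3 and 2 of 14 for CITE-seq, so that the share higher in CITE-seq was near that of all genes. The highest of these were the importer Slc11a2 (5.42-fold and 6.06-fold) and the ferrireductase Steap3 (8.09-fold and 4.67-fold), and the iron-sensing ubiquitin ligase subunit Fbxl5 was lower in LLC (2.10-fold).

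Hypoxia and integrated stress response genes went to Mono/TAM Hypoxic in that contrast. Of 18 hypoxia genes, 6 were lower in LLC TAM Hypoxic and 1 higher in each library. Hilpda, which coats lipid droplets, was 2.45-fold and 2.33-fold lower, Vegfa, the vascular growth factor, 2.24-fold and 2.27-fold lower, and Ero1l, an oxidase of the endoplasmic reticulum, 3.21-fold and 2.16-fold lower. The hypoxia gene that was higher was Adm (1.62-fold and 2.13-fold). Stress response genes were lower for 8 of 13 measured in LLC, and for 6 of 11 in CITE-seq, led by Ddit4, an inhibitor of mTOR signalling (5.21-fold and 4.70-fold), while Gdf15, a stress cytokine, was 5.77-fold and 2.04-fold higher. Glutathione-using genes were higher in 8 of 12 and 4 of 12, such as Gstm1 (2.90-fold and 2.17-fold). The NADPH oxidase genes, which make superoxide, had medians of -0.22 and -0.36 (log2), with Ncf1 alone called higher (1.70-fold and 2.06-fold).

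Levels of other cell types are given beside these subsets. The 5 red-cell markers, which would come with haemoglobin RNA, summed to 18.8 and 3.35 CPM in LLC TAM Hypoxic. They summed in Mono/TAM Hypoxic to 300.4 CPM in LLC, 6.53 in CITE-seq and 5.53 in B16. The highest sums were 620.0 CPM in TAM-2 of LLC and 215 CPM in TAM-1 of B16. The erythroid enzyme Alas2 was at 0 in both hypoxic subsets of every library. Platelet markers were highest in LLC TAM Hypoxic, at 5126 CPM in LLC and 3940 CPM in CITE-seq, with 2 of 4 at 0 (Itga2b and Gp9). The part of other cells in the levels of the 10 genes was not tested.

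Antibody tags of the CITE-seq library read proteins of haem and iron uptake on the cells themselves. CD163, the receptor for haemoglobin bound to haptoglobin, had 68.3 per 10000 tag UMIs [65.7 to 70.9] on LLC TAM Hypoxic, second to TAM-4 at 102 [101 to 103]. Mono/TAM Hypoxic had 16.004 and Monocytes 16.7. Other subsets lay between 13.7 and 28.0. Cd163 RNA did not follow the tag in LLC TAM Hypoxic of that library. It stood at 1.12 CPM, from 3 UMIs, against 2.35 CPM in the other cells, a ratio of 0.474 [0.0965 to 1.42]. The highest of 9 isotype controls was 8.26 on LLC TAM Hypoxic and 8.04 on TAM-4, and 72.3 on Immature TAM-3, above the CD163 value of 13.7 there. The CD36 tag went against its RNA between the hypoxic subsets. It read 5.45 [4.75 to 6.23] on LLC TAM Hypoxic, below the highest isotype control there, and 14.04 [12.8 to 15.4] on Mono/TAM Hypoxic, while Cd36 RNA was 2.47-fold higher in LLC TAM Hypoxic of that library. CD71, the transferrin receptor, varied less, from 19.8 on Mono/TAM Hypoxic and 28.8 on LLC TAM Hypoxic to 43.9 on TAM-4. The red-cell tag TER119 stayed between 0.778 and 1.62 in all subsets, below the highest isotype control of each.

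Between the LLC and B16 libraries as wholes, Hmox1 was 1.78-fold [1.75 to 1.82] higher in LLC (1152 against 646 CPM), Mt2 2.12-fold higher (83.3 against 39.4 CPM) and Gsr 1.65-fold higher (254 against 154 CPM). Slc40a1 was 1.66-fold [1.37 to 1.997] lower in LLC (4.61 against 7.63 CPM). The other 6 lay within 1.5-fold, with Mt1 at 1.48 and Fth1 at 0.695. So 3 of 10 were higher, where 11.8% of all genes were, and 1 lower, where 11.9% were. Leaving out both hypoxic subsets brought the LLC to B16 ratio of Hmox1 to 1.07, of Mt1 to 1.06 and of Mt2 to 1.01, and that of Slc40a1 to 0.242, while Gsr stayed at 1.58. The libraries differ both in the share of hypoxic cells and in levels within Mono/TAM Hypoxic, and these were not separated. With equal weight for each shared subset, Hmox1 turned to 0.943 and Mt2 fell within 1.5-fold (1.29). After thinning each cell to 2000 UMIs Slc40a1 turned to 1.04 and Gsr reached 1.39, and with the mean of each cell's CPM they stood at 0.888 and 1.405.

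Compared with the same B16 library, LLC CITE-seq gave other values. None of the 10 was called higher, where 9.93% of all genes were. Slc40a1 was 1.88-fold lower [1.54 to 2.28] and Fth1 1.59-fold lower (12979.9 against 20585 CPM), 2 genes where 11.0% of all were lower. The Slc40a1 ratio of 0.533 moved to 0.829 after thinning and to 0.322 without the hypoxic subsets, and that of Fth1 to 0.712 with equal weight of shared subsets. Hmox1 stood at 468 CPM, with a ratio of 0.724 to B16. Both comparisons share the B16 library. Because strain is the same in this pair, its values are the ones not crossed with genotype, although CITE-seq and tumour still change together.

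**Figure D4:**
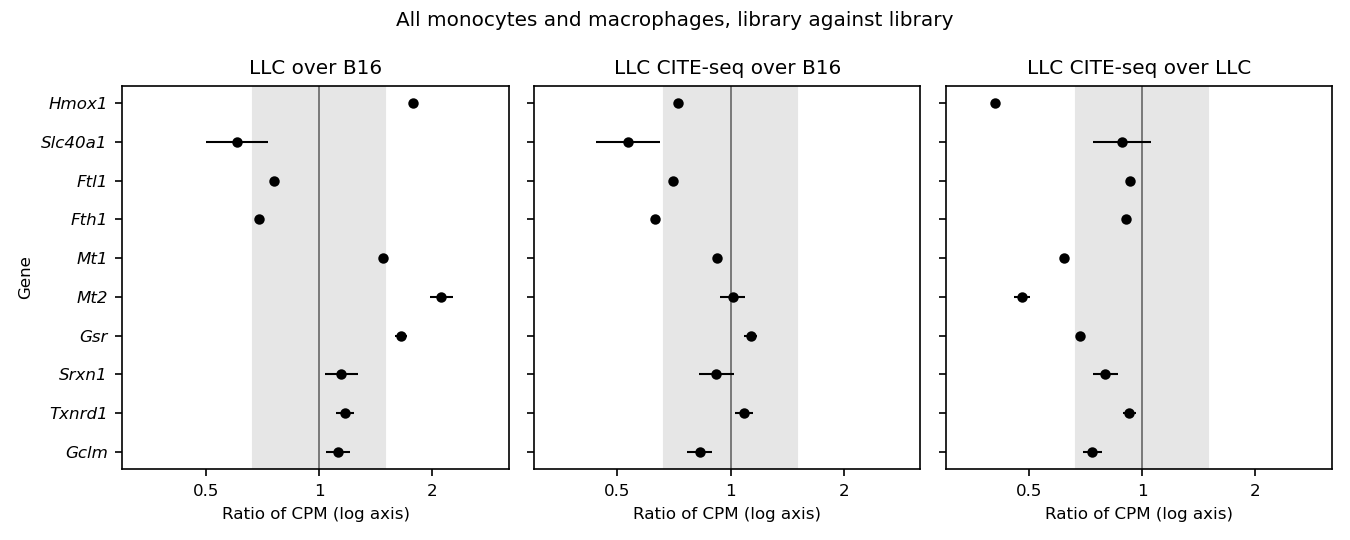
Points are CPM ratios on a log axis for the 10 genes over all monocytes and macrophages, for LLC over B16, CITE-seq over B16 and CITE-seq over LLC, with exact 95% intervals, and the grey band marks ratios within 1.5-fold. Hmox1, Mt1 and Mt2 lie below the band for CITE-seq over LLC.

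The pair of LLC libraries also differed in these genes. Hmox1 was 2.46-fold [2.43 to 2.50] lower in CITE-seq than in LLC, Mt2 2.09-fold lower and Mt1 1.61-fold lower. That is 3 of 10 lower, where 2.81% of all genes were, and 0 higher, where 3.03% were. Without the hypoxic subsets the ratios were 0.543 for Hmox1, 0.865 for Mt1 and 0.895 for Mt2. Hmox1 thus stayed more than 1.5-fold lower, and the metallothioneins came within 1.5-fold. With equal weight of shared subsets Mt1 stood at 0.667, at the edge of the 1.5-fold call.

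Within subsets shared by both libraries the difference went the same way. In 9 subsets, 84 gene-by-subset values could be measured, and 21 were lower in CITE-seq and 0 higher, against 5.59% and 5.84% over all genes and subsets. LLC TAM Hypoxic had 6 of the 21: Hmox1 (2.37-fold lower), Gclm (2.10-fold), Mt2 (1.94-fold), Txnrd1 (1.93-fold), Mt1 (1.58-fold) and Srxn1 (1.58-fold). Mono/TAM Hypoxic had 4, with Mt2 6.34-fold [5.20 to 7.80] and Mt1 2.93-fold lower. In TAM-4 only Hmox1 was called (1022 against 455 CPM, 2.25-fold lower). TAM-3 and Mono/TAM IFN had none. The Monocytes value of Mt2 rested on 5 and 19 UMIs, with an interval of 0.107 to 1.02 that covers 1.

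Within subsets, LLC and B16 differed in opposite directions by subset. Of 27 measured values in 3 subsets, 6 were higher and 9 lower in LLC, against 16.1% and 10.3% over all genes and subsets. In Mono/TAM Hypoxic, LLC had more Mt2 (4.33-fold [3.598 to 5.25]), Gsr (2.85-fold), Hmox1 (1.84-fold) and Mt1 (1.65-fold), and less Srxn1 (1.89-fold) and Ftl1 (1.58-fold). In Mono/TAM IFN, LLC had less Fth1 (9657 against 31656 CPM, 3.28-fold), Mt2 (2.70-fold), Srxn1 (2.18-fold), Mt1 (2.03-fold), Ftl1 (1.94-fold), Hmox1 (1.85-fold) and Gclm (1.84-fold), and more Gsr (1.55-fold). In Monocytes only Mt1 was called, at 1.88-fold higher. Slc40a1 had too few UMIs for these comparisons.

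Against CITE-seq, the B16 values within subsets gave 2 higher and 12 lower of 35 measured in 4 subsets, where 15.5% and 11.5% of all values were. Mono/TAM IFN held 6 of the 12, with Hmox1 2.70-fold and Fth1 2.62-fold lower in CITE-seq. In Mono/TAM Hypoxic Gsr was 1.996-fold higher, and Gclm (2.03-fold), Srxn1 (1.94-fold) and Mt1 (1.77-fold) were lower. In Immature TAM-1 Hmox1 was 2.25-fold lower. The other higher value was Mt2 in Immature TAM-1, from 6 and 42 UMIs, with a ratio of 1.89 and an interval of 0.658 to 4.47. None was called in Monocytes.

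Named pathway genes outside the 10 also differed between the LLC libraries and the B16 library. Cd163 was 10.2-fold and 4.38-fold higher in LLC and CITE-seq than in B16. Spic, a transcription factor of iron-recycling macrophages, was 11.3-fold and 9.37-fold lower, and Cp, the ferroxidase ceruloplasmin, 29.7-fold and 26.0-fold lower. The zinc exporter gene Slc30a1 was 3.84-fold and 3.79-fold lower, and Gpx3, a secreted glutathione peroxidase, 7.19-fold and 7.53-fold lower, and Gdf15 5.43-fold and 6.63-fold lower. Other genes of the same iron, zinc, glutathione and stress response lists went the other way. Slc39a14 was 2.26-fold and 1.85-fold higher, Slc39a10 1.80-fold and 1.91-fold, Mgst3 2.56-fold and 2.15-fold, and Slc7a11 3.94-fold and 2.29-fold. Of 18 measured NRF2 targets, 3 were higher and 2 lower in LLC over B16 and 3 and 3 in CITE-seq over B16, with medians of -0.0045 and -0.08 (log2) against 0.03 and 0.04 over all genes. Iron handling genes split 4 higher and 4 lower of 17 in LLC, and 3 and 4 of 17 in CITE-seq. Glutathione-using genes split 3 and 4 of 15 in each. Of all measured genes, 11.8% were higher and 11.9% lower in LLC, and 9.93% and 11% in CITE-seq.

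The genes whose level ran most like each of the 10 over the 24 units, by Pearson correlation of log2(CPM + 1) among 5020 genes, were partly the others of the 10. Mt1 led for Hmox1 (0.93), followed by Osbpl8 (0.92) and Mt2 (0.91), and Mt1 and Mt2 led for each other (0.96). Gclm was first for Slc40a1 (0.81), and Ftl1 for Gclm (0.85), ahead of Slc48a1. Fnip2 was first for Fth1 (0.97), Kdm6b for Gsr (0.95), Tmem251 for Srxn1 (0.86) and Ptgr1, an NADPH-dependent reductase, for Txnrd1 (0.77). Sqstm1, an autophagy receptor, was the third for Ftl1 (0.93).

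Across all cell types of the joint table, 8 of 20 gene-by-library peaks fell in a monocyte or macrophage cluster of at least 50 cells. The clusters of this table are named separately from the subsets above, and its Imm TAM-2 cluster is not Immature TAM-2. Imm TAM-2 was highest for Hmox1 (4366 and 2145 CPM in LLC and B16), for Mt1 at 2890 and 1609 CPM and for Mt2 at 464 and 155 CPM. In LLC it was also highest for Ftl1 (13080 CPM) and Srxn1 (51.6 CPM). Lymphocytes and dendritic cells had little Hmox1, such as 31.3 and 15.9 CPM in naive T cells of LLC and B16 and 132 and 46.2 CPM in cDC2. B cells of LLC had 578 CPM against 29.7 CPM in B16, but 90.3% of those 154 UMIs lay in 5 of the 102 cells.

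Neutrophils stood out in CPM for RNA of the ferritin heavy chain, the iron exporter and glutathione reductase. These are shares of the UMIs of a cluster and not amounts per cell. Median depth was 1556.5 and 1803 UMIs in Neutrophil-2 of LLC and B16, against 4963.5 and 6499 in Imm TAM-2. Neutrophil-2 had the highest Fth1 of all clusters, with 58885 CPM in the LLC library and 73347 in B16, and Neutrophil-1 the highest Gsr, at 1208 and 1415 CPM. Slc40a1 was highest in Neutrophil-1, at 171 CPM [149 to 195] in LLC and 432 CPM [367 to 504] in B16, with a UMI in 21.0% of 813 and 44.9% of 214 cells, although these cells had medians of only 1406 and 1642 UMIs. Neutrophil-2 followed with 75.2 and 179 CPM. Neutrophil-2 also led for Gclm in LLC (164 CPM). In B16 it led for Gclm (122 CPM), Srxn1 (57.6 CPM) and Txnrd1 (173 CPM), where its interval overlapped the next cluster in each case. Txnrd1 of LLC was highest in migratory dendritic cells (migDC), at 156 CPM. The heavy chain count per light chain was 6.26 in Neutrophil-2 of LLC and 2.67 in that of B16.

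**Figure D5:**
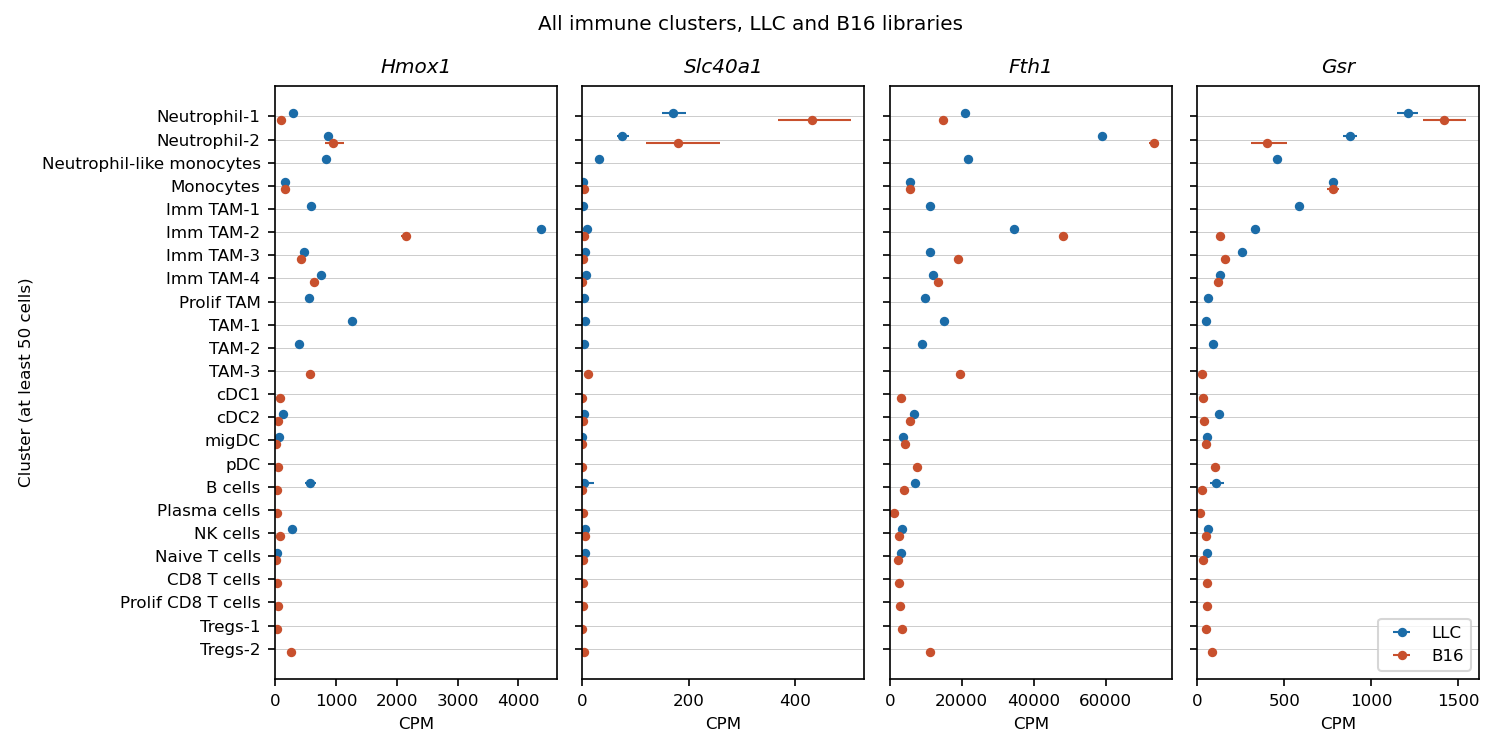
Points give CPM on a linear axis of Hmox1, Slc40a1, Fth1 and Gsr in every cluster of at least 50 cells of the joint table, LLC and B16, with exact Poisson 95% intervals. Slc40a1 and Gsr peak in Neutrophil-1, Fth1 in Neutrophil-2 and Hmox1 in Imm TAM-2.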

How the data were processed

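UMI counts per gene and cell of pooled LLC, LLC CITE-seq and B16 tumours were used as the authors deposited them. Cell Ranger and mm10 are named in the submitters' processing notes, with no version. The filtering of cells and doublets and the clustering are not described in the sources used here, and no doublet caller was run. Subset names are the deposited annotation, and antibody tags are deposited UMI counts. UMIs were summed per subset and library and expressed as CPM with exact Poisson intervals. Ratios have exact conditional binomial 95% intervals and shares have Clopper-Pearson intervals. No test was made, since each group is 1 library. A gene was measured from 20 UMIs over both sides and called past 1.5-fold, and clusters entered from 50 cells. A ratio against 0 used a floor of 3 counts and was never taken past 1 the other way. The script was tested on simulated data of the 3 library pairs.

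The 10 genes and the 11 pathway lists (149 genes, 143 in the table) were chosen with earlier results of these data known. The 10 genes are always named. From each list up to 3 genes a direction are named by the interval bound nearest to 1 (the weaker of the LLC libraries), and the 3 genes most like each gene by correlation among genes with a mean of at least 20 CPM. Marker genes and genes given where a list holds few calls were named after their values were seen. Alternatives were scaling by the median gene, thinning to 2000 UMIs, mean over cells, other denominators, depth cuts, 100 UMIs, 2-fold, 20 cells, equal subset weights and no hypoxic subsets. Sequences are from RefSeq windows and the GENCODE vM21 annotation. Python 3.11.15, numpy 2.4.6, pandas 2.3.3, scipy 1.17.1 and matplotlib 3.10.9 were used.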

Additional observations from a re-analysis of the deposited data

Results flagged for a closer look

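In 4 cases a gene was called higher in an LLC library than in B16 in some shared subset and lower in another, so the same contrast pointed both ways. With 1 library per group the difference between subsets was not tested. Hmox1, LLC over B16, had a ratio of 1.84 in Mono/TAM Hypoxic and 0.540 in Mono/TAM IFN. Mt1, LLC over B16, had 1.88 in Monocytes and 0.492 in Mono/TAM IFN. Mt2, LLC over B16, had 4.33 in Mono/TAM Hypoxic and 0.371 in Mono/TAM IFN. Mt2, CITE-seq over B16, had 1.89 in Immature TAM-1, where the interval of 0.658 to 4.47 covers 1, and 0.447 in Mono/TAM IFN. In each case the lower side was Mono/TAM IFN, whose B16 cells number 158.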

How the results depend on the processing

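No paired analysis was possible because each group is 1 library. The 4 genes called for LLC over B16 became 2 after thinning, 2 with equal weight of shared subsets and 1 at 2-fold, and the 15 values within subsets became 6 at 2-fold and 25 with subsets from 20 cells. For CITE-seq over B16, the 2 genes became 1 after thinning and 0 at 2-fold, and the 14 within subsets became 7 at 2-fold. For CITE-seq over LLC, the 3 genes became 1 without the hypoxic subsets, and the 21 within subsets became 8 at 2-fold. The 8 peaks in monocyte and macrophage clusters became 14 when read as the share of cells with a UMI. The 48 list genes called between libraries became 18 at 2-fold. Among genes called in the reported comparison, directions turned in 2 cases: Hmox1, LLC over B16, reached 0.943 with equal weight of subsets, and Slc40a1, LLC over B16, 1.04 after thinning, and the cause was not tested. The 149 calls of a subset over the rest of its library lay between 101 (at 2-fold) and 160 (subsets from 20 cells), and the calls between the hypoxic subsets moved by at most 1. Of the single-gene values under alternatives, 171 stayed within their counting interval, 155 moved beyond it and these 2 turned. A further 20 values of genes not called crossed 1, none past 1.5-fold on the other side. Depth limits Slc40a1 most, with 189 to 285 UMIs per library, and then Mt2 in Monocytes.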

Other observations

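Counts of pathway lists not yet described are given here beside those of all genes. Haem synthesis genes were lower in Mono/TAM Hypoxic than in the other cells for 5 of 10 in LLC, 5 of 10 in CITE-seq and 7 of 10 in B16, with none higher, where 38.9%, 33.2% and 37.6% of all genes were lower. Their medians were -0.61, -0.58 and -0.86 (log2) against -0.38, -0.29 and -0.33 over all genes, with genes at 0 UMIs on one side taken at the floor of 3 counts. Against Mono/TAM Hypoxic, where 26.3% (LLC) and 22.7% (CITE-seq) of all genes were higher, LLC TAM Hypoxic had 3 of 9 haem synthesis genes higher and none lower in both LLC libraries, with Alad, the enzyme that joins the first precursors into a pyrrole, 2.97-fold and 2.73-fold higher. Genes that control NRF2 or share its sites had medians of 0.17, 0.13 and 0.25 in Mono/TAM Hypoxic over the other cells, with 3, 2 and 3 of 9 higher, against 10.8%, 9.96% and 12.9% of all genes, and 2 lower in B16.

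Thioredoxin and peroxide genes were higher in LLC TAM Hypoxic than in Mono/TAM Hypoxic for 7 of 13 in LLC and 4 of 13 measured in CITE-seq, and 1 was lower in each. Catalase (Cat) was 2.51-fold and 2.32-fold higher, whereas Prdx6, another peroxiredoxin, was 1.95-fold and 2.28-fold lower. Of 15 measured zinc and copper genes 3 were higher and 1 lower in both LLC libraries, a share below that of all genes higher, with the zinc importer gene Slc39a10 3.26-fold and 3.57-fold higher. These are counts of size with no test, and the subsets were clustered on the same RNA.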
